A study of Homo sapiens with 26 samples.

Results

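USO1 and SEC63 were followed codon by codon as 2 of the 12325 transcripts in the deposited codon maps, 11270 of which carried a GENCODE gene symbol. Both were chosen by the readout. In the first study, after 60 min with 1.5 μM PF-06446846, their cumulative fractional reads departed from vehicle beyond codon 50, with a Dmax Z-score of 5.05 at codon 344 of USO1 and of 2.56 at codon 345 of SEC63. Dmax is the largest difference, over all codons, between the fractions of a transcript's reads that lie at or 5′ to a codon in treated and vehicle cells, and its Z-score divides it by the root mean square of 300 transcripts of similar read number. The minimum was a Z-score of 2, and the transcripts on either side of it had Z-scores of 2.00073 and 1.99965. Of 11442 transcripts with at least 10 reads in both groups, 2.72% reached the minimum, and 1.27% did so with a Dmax codon after 150. These 60-min values are given below as a description, without a test. USO1 and SEC63 were picked with results of all libraries known. Tests on the other libraries are therefore not independent of that choice.

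The libraries came from Huh7, an established human hepatocellular carcinoma line and so a single cell model of the liver. PF-06446846 is a small molecule that acts on the translating human ribosome, and the ribosome profiling asked how selective it is across mRNAs. Cells of the first study received PF-06446846 at 1.5 or 0.3 μM, or DMSO as vehicle, for 10 or 60 min, with 3 ribo-seq libraries per group, and in the second study 1.5 μM or vehicle for 60 min, with 2 ribo-seq and 2 mRNA-seq libraries per group. Cells of every group met cycloheximide at harvest, and the groups carried no genetic change. The values are of whole cultures, in which fewer translating cells and fewer footprints per cell cannot be told apart. The study calls its replicates biological, but the labels give no culture or day, so p-values measure the spread between libraries, part of which may be technical.

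Ribo-seq libraries held 6414227 to 22224137 reads in coding sequence (CDS) and mRNA-seq libraries 15227654 to 22036358. USO1 had 419 to 2313 CDS reads per library and SEC63 537 to 2748. The liver label held: 7 of 8 hepatocyte markers were in the files, with a summed level of 7311 to 24447 RPM (reads on a per-million scale of the CDS reads in a library), while 1 of 3 fibroblast markers (0 to 6.19 RPM) and 1 of 3 endothelial markers (11.5 to 26.7 RPM) were measured. Of the 3 leukocyte markers looked up, 0 had a row in the tables used. Among the vehicle libraries at 10 min, replicates 2 and 3 were least alike in reads per CDS (Spearman correlation 0.982). Replicate 1 was near both (0.991 and 0.990). A pair of libraries at 60 min with 1.5 μM differed as much (0.981). Without vehicle replicate 3, the transcripts called 3′ to their boundary at 10 min rose in number from 186 to 1701. Values with and without that library are therefore given where it matters.

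USO1, also known as p115, is a long coiled-coil tether that captures COPII vesicles leaving the endoplasmic reticulum and hands them to the cis-Golgi together with golgins, RAB1 and SNARE proteins. SEC63 is a membrane protein of the endoplasmic reticulum that works with SEC61 and SEC62 at the translocon, where its J domain recruits the chaperone BiP to nascent chains. A ribosome that stalls on such an mRNA leaves a build-up of footprints at and just 5′ to the stall, where following ribosomes queue. Footprints 3′ to the stall can be fewer, although the study also found stalls without a loss of reads beyond them. An initiation block would instead lower footprints along the whole coding sequence, and mRNA-seq reads over the same codons show whether the mRNA itself changed.

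USO1 (ENSG00000138768.15, transcript ENST00000514213) lies on chromosome 4 at 75724577 to 75814286 on the plus strand of GRCh38, with 24 exons and 962 codons before the stop. At 60 min of the first study with 1.5 μM, the codon after 50 with the largest rise of footprints over vehicle was codon 287, at chr4:75787065-75787067 in exon 10. SEC63 (ENSG00000025796.14, transcript ENST00000369002) lies on chromosome 6 at 107867756 to 107958208 on the minus strand, with 21 exons and 760 codons. Its codon with the largest rise in the same libraries was 214, at chr6:107909018-107909020 in exon 8. Each is called the stall codon here by that rule alone, and the largest rise over the whole CDS fell elsewhere in most other comparisons. For USO1 it fell on codon 286 at 10 min with 1.5 μM, on codon 277 in the second study and at 60 min with 0.3 μM, and on codon 772 at 10 min with 0.3 μM. For SEC63 it fell on codon 215 at 10 min with 1.5 μM and in the second study, on codon 214 at 60 min with 0.3 μM, and on codon 9 at 10 min with 0.3 μM. Both positions are inside coding exons, far from the start codon. The coding sequences around them are printed because every comparison below is read at these codons. Capitals mark the codons where 1.5 μM PF-06446846 raised the mean footprint level at 60 min at least 3-fold and by at least 0.3 RPM, a rule set after the values were seen.
USO1, codons 252 to 303, chr4:75782757-75787115, plus strand, exons 9 and 10 without the intron: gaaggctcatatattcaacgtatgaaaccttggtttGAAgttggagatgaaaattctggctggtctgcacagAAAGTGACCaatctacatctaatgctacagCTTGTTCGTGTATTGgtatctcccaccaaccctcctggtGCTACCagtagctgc
SEC63, codons 192 to 220, chr6:107909000-107911396, minus strand, exons 7 and 8 without the intron: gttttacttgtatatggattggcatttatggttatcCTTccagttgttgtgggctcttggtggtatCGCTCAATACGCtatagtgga

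The stretches differ in codon make-up. Codons with T as the second base, all of which encode hydrophobic residues, made up 20 of the 40 codons before codon 214 of SEC63 (50%), the highest number among the 721 windows of 40 codons in that coding sequence, where the median was 11 and 1.11% of windows held as many. Before codon 287 of USO1 they made up 12 of 40 (30%), near that transcript's own median of 11, and 49.1% of its 923 windows held as many. The high number in SEC63 thus had no counterpart in USO1. Words of 23 bases from the USO1 coding sequence occurred in 0 of 11269 other transcripts searched, and 3 of the 2261 words of SEC63 (0.133%) occurred in 6 of them.

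At 60 min in the first study, in the libraries that set the boundary and the stall codon, footprints built up in a few short clusters. The stall window, which is the stall codon with 5 codons on either side, held 9.09, 7.44 and 12.8 RPM of USO1 footprints in the 3 libraries with 1.5 μM, 4.11, 3.91 and 4.73 RPM in the 3 with 0.3 μM and 1.71, 2.51 and 3.87 RPM in the 3 vehicle libraries. All libraries with 1.5 μM lay above every vehicle library, and those with 0.3 μM did so as well, by a small margin. The SEC63 window held 10.3, 13.3 and 13.2 RPM with 1.5 μM, 4.47, 5.62 and 6.51 RPM with 0.3 μM and 3.59, 2.51 and 2.68 RPM with vehicle, again with no overlap between the groups. The mean level at 1.5 μM was 3.62 times vehicle for USO1 and 4.19 times for SEC63.

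**Figure D1:**
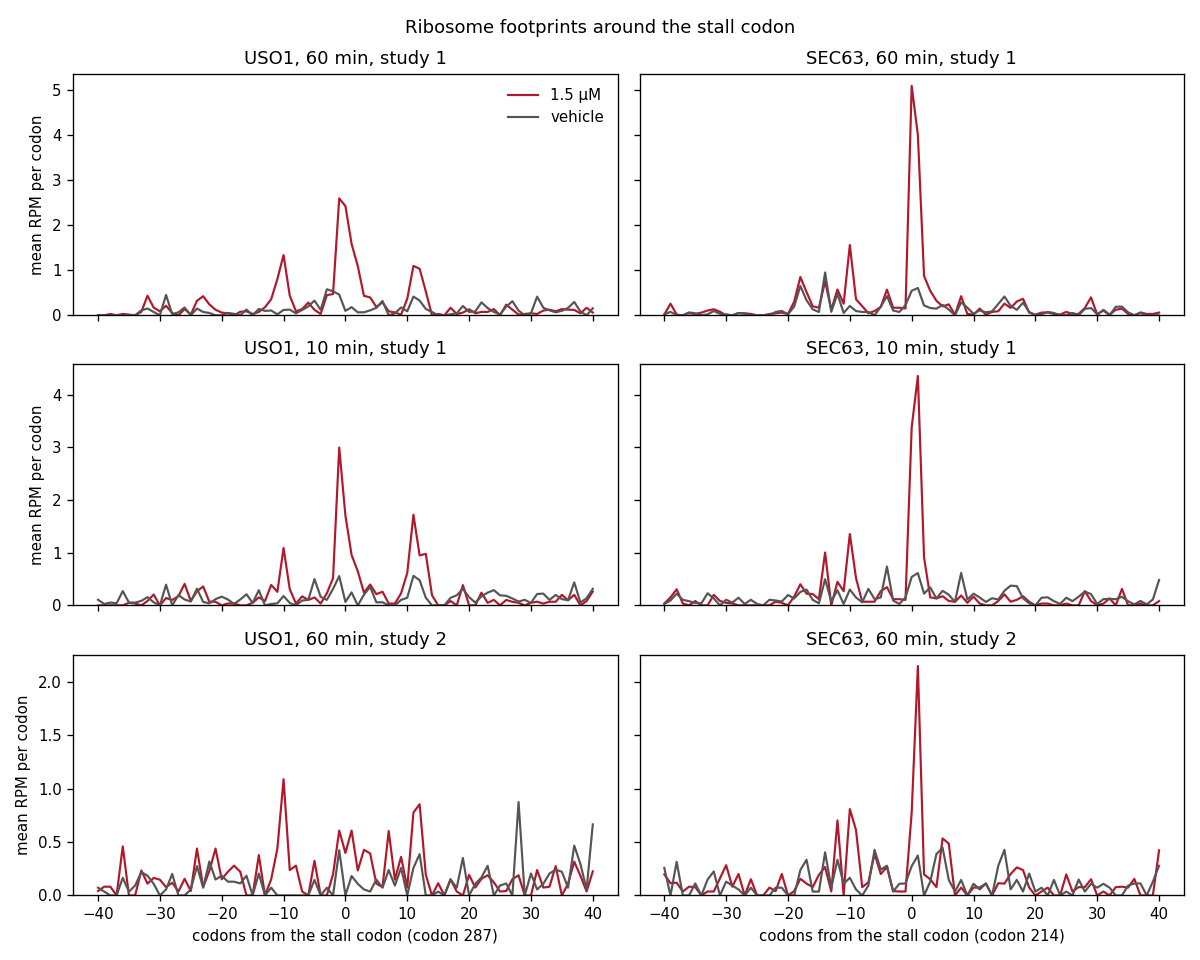
Mean footprint level per codon (RPM, linear axes of differing height) against distance in codons from the stall codon of USO1 (287) and SEC63 (214), for 1.5 μM PF-06446846 (red) and vehicle (grey), by study and time. At 60 min of the first study the red line reaches 2.59 RPM in USO1 and 5.09 RPM in SEC63, with lesser peaks about 10 codons 5′ to the stall in both genes and 12 codons 3′ to it in USO1.

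Clusters were looked for only after codon 150 and before the last 15 codons. Within that range USO1 had 5 such clusters, between codons 222 and 300. Their top codons, 222, 264, 277, 287 and 299, were 42, 13, 10 and 12 codons apart. The highest cluster, codons 286 to 290, took 7.56, 6.15 and 10.7 RPM at 1.5 μM against 0.780, 0.838 and 0.991 RPM in vehicle. The next one 5′ to it, codons 276 to 278, took 1.84, 1.72 and 4.18 RPM against 0.312, 0.387 and 0.0991 RPM. The cluster at codons 299 and 300 lay 3′ to the stall codon and took 1.44, 2.00 and 1.24 RPM against 0.156, 0.451 and 0.793 RPM. Codon 298 beside it, named after its values were seen, missed the 3-fold rule at 60 min (1.096 against 0.415 RPM) but held 1.72 against 0.561 RPM at 10 min and 0.776 against 0.258 RPM in the second study. The single codons 222 and 264 rested on 2 to 14 reads per treated library.

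SEC63 had 2 clusters in the range searched, 10 codons apart. Codons 214 to 217 took 8.01, 11.2 and 12.4 RPM at 1.5 μM and 1.09, 1.61 and 1.88 RPM in vehicle. Codon 204 took 0.990, 1.29 and 2.40 RPM against 0, 0.322 and 0.297 RPM. The difference between treated and vehicle profiles was correlated with itself at shifts of 6 to 20 codons only, so shorter shifts were not compared. Among these, the correlation was highest at a shift of 11 codons (0.410) within codons 151 to 344 of USO1. Within codons 151 to 345 of SEC63 it was highest at a shift of 10 codons (0.177), both as descriptions over codons of pooled libraries. At 1.5 μM the best shifts in the other ribo-seq comparisons were 11 codons at 10 min (0.351) and 9 in the second study (0.261) for USO1, and 11 in both for SEC63 (0.163 and 0.209). The next highest shift came close to the best for USO1, at 0.360 (60 min), 0.342 (10 min) and 0.257 (second study). Values of similar size stood at other shifts for SEC63, with 0.181 at 17 codons (60 min) and 0.232 at 15 (10 min) for 0.3 μM, and 0.147 at 14 in mRNA-seq.

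Vehicle footprints had peaks of their own elsewhere. In USO1 the highest vehicle codon at 60 min was 772, with a mean of 1.65 RPM, and in SEC63 codon 9 with 3.51 RPM and codon 754 with 2.13 RPM. In SEC63 codon 9 remained among the 3 highest codons of every ribo-seq group, at 1.41 to 4.62 RPM. The codons of the treated clusters held vehicle footprints too, with 0.460 RPM at codon 286 and 0.0975 RPM at codon 287 of USO1 and 0.544 and 0.605 RPM at codons 214 and 215 of SEC63. Per length, vehicle had 81.8 RPKM (RPM per kilobase) in the stall window of USO1 against 34.1 RPKM over its whole CDS, and 88.6 RPKM against 43.3 RPKM in SEC63, so the vehicle level in these libraries was above the gene's mean in both windows. Vehicle libraries of the second study had 35.6 ± 21.4 RPKM (SD, n = 2) in the USO1 window, close to the 34.4 RPKM of its CDS, and 72.4 ± 18.2 RPKM against 38.5 RPKM in SEC63.

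Counts in bins of 50 codons show what lay on either side of the clusters. At 60 min, USO1 codons 1 to 50 held 1.68 RPM at 1.5 μM and 2.94 RPM in vehicle. Its codons 51 to 100 held 3.48 and 3.51 RPM, and codons 101 to 150 held 2.45 and 3.96 RPM. SEC63 codons 51 to 100 held 7.72 and 4.35 RPM at 60 min, but 6.58 and 7.68 RPM at 10 min. In USO1, codons 251 to 300 held 19.6 RPM at 1.5 μM and 6.70 RPM in vehicle at 60 min, while codons 351 to 400 held 2.79 and 6.50 RPM and codons 901 to 950 held 2.55 and 6.74 RPM, a deficit that ran to the end of the coding sequence. In SEC63, codons 201 to 250 held 19.0 and 7.29 RPM, codons 351 to 400 held 5.06 and 5.53 RPM, and codons 501 to 550 held 4.01 and 4.70 RPM. SEC63 codons 251 to 300 (5.50 and 5.21 RPM) and 301 to 350 (5.21 and 4.93 RPM) lay slightly above vehicle, and its last codons, 751 to 761, lay far below it at 1.74 and 4.93 RPM. From codon 351 on, the log2 ratio of treated to vehicle ran from -1.40 to -0.76 over the USO1 bins, and from -0.41 to -0.11 over the SEC63 bins apart from the last, at -1.50. All are group means given without a test, and the 60-min values come from the libraries that set the boundary.

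**Figure D2:**
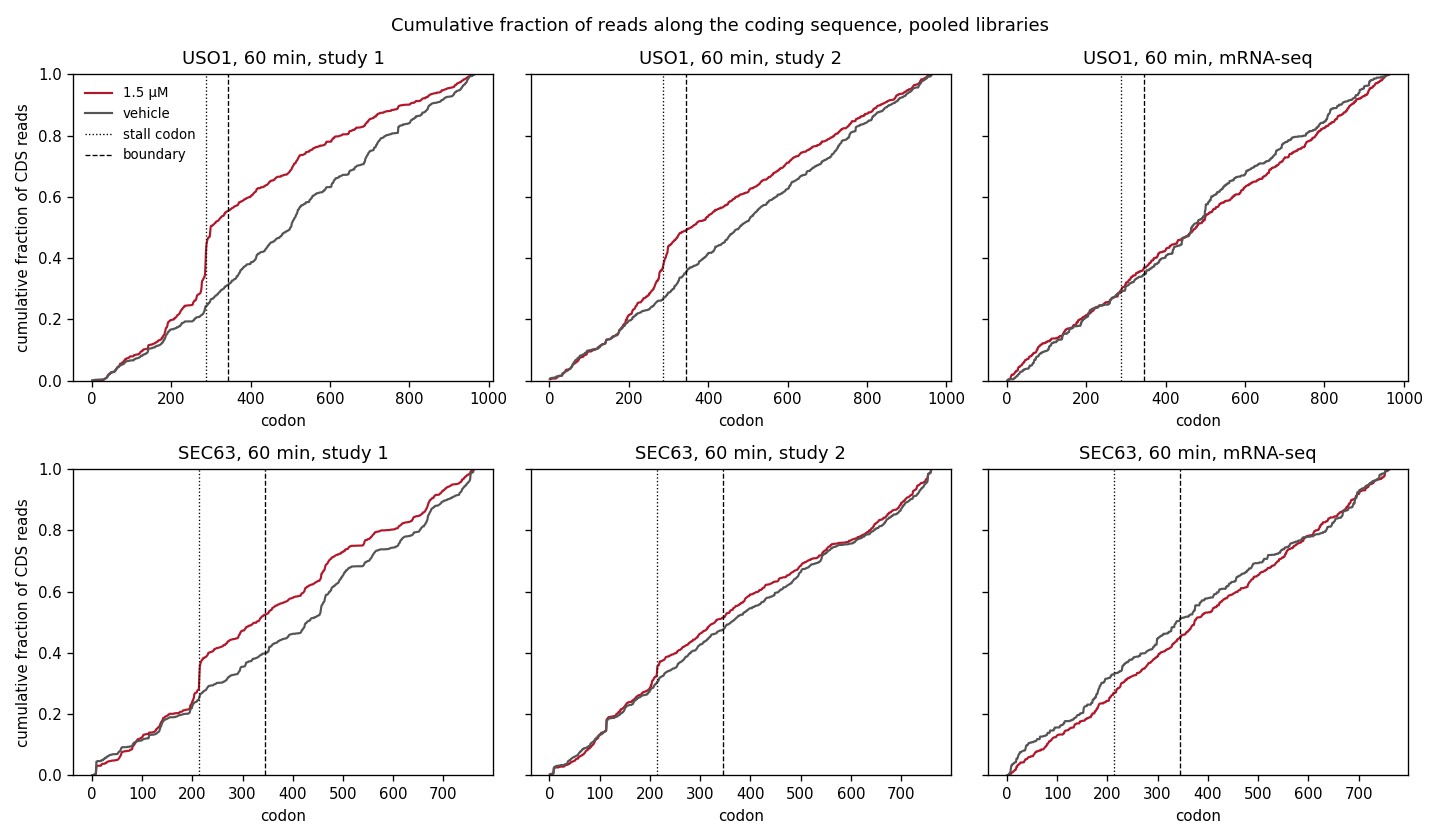
Cumulative fraction of CDS reads at or 5′ to each codon, with libraries pooled by group, for 1.5 μM PF-06446846 (red) and vehicle (grey) after 60 min in ribo-seq of each study and in mRNA-seq. The dotted line marks the stall codon and the dashed line the boundary, by which the red USO1 line of the first study has reached 55.5% of reads and the grey line 31.3%, while in mRNA-seq they reach 36.5% and 34.4%.

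To compare the members across libraries, reads strictly 3′ to the 60-min Dmax codon, called the boundary here, were counted (after codon 344 in USO1, after codon 345 in SEC63). At 60 min 48.4%, 46.1% and 34.1% of the USO1 reads lay 3′ to the boundary with 1.5 μM, 62.9%, 63.0% and 56.7% with 0.3 μM, and 69.1%, 70.8% and 65.1% with vehicle. For SEC63 the shares were 48.3%, 43.3% and 47.7% with 1.5 μM, 49.9%, 54.0% and 51.9% with 0.3 μM, and 61.9%, 59.9% and 59.1% with vehicle. In neither gene did a treated group overlap vehicle, and for both genes the shares at 1.5 μM lay below those at 0.3 μM. The boundary is where 1.5 μM and vehicle differed most in these same libraries, so this separation was largely set by that choice. In RPM, the highest SEC63 library with 1.5 μM reached the vehicle mean (log2 ratio -0.00079), and the highest USO1 library with 0.3 μM passed it (0.057). The highest USO1 library with 1.5 μM (-0.73) and SEC63 library with 0.3 μM (-0.081) lay below it. The fitted log2 fold change 3′ to the boundary at 1.5 μM was -1.12 (SE 0.183) for USO1 and -0.30 (SE 0.165) for SEC63, and at 0.3 μM -0.28 (SE 0.170) and -0.25 (SE 0.154). Both doses were set against the same vehicle libraries.

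At 10 min the libraries with 1.5 μM also lay above vehicle in the USO1 stall window. Their values did not set the boundary or the stall codon, but USO1 and SEC63 were picked with results of all libraries known, so the p-values at 10 min and in the second study are not independent of that choice. The window held 8.15, 7.38 and 8.73 RPM with 1.5 μM and 3.48, 1.60 and 2.59 RPM with vehicle. The groups did not overlap, the means differed 3.16-fold, and the two-sided exact permutation test gave p = 0.1, the smallest p that 3 libraries against 3 allow. The cluster at codons 286 to 290 took 6.84, 5.33 and 7.47 RPM against 1.39, 0.641 and 1.18 RPM, and codons 276 to 278 took 1.31, 1.03 and 2.63 RPM against 0.116, 0.320 and 0.353 RPM. The cluster 3′ to these, codons 299 and 300, took 2.77, 1.33 and 1.68 RPM against 0.406, 0.641 and 0.825 RPM. In each of these 3 clusters every treated library lay above every vehicle library. Codon 264 did so too, at 0.146, 0.513 and 0.421 RPM against 0.116, 0.0801 and 0 RPM. Codon 222 overlapped vehicle, at 0.291, 1.13 and 0.210 RPM against 0.348, 0 and 0 RPM. Without any effect, 3 libraries against 3 separate fully, in either direction, with a probability of 0.1. How many other transcripts separated in this way was not counted.

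Footprints of USO1 3′ to the boundary fell at 10 min. They amounted to 30.3, 32.7 and 36.7 RPM with 1.5 μM and 84.3, 93.1 and 54.5 RPM with vehicle, of which the lowest was replicate 3. The log2 fold change was -1.13 (SE 0.166), with an adjusted p of 0.00501 from the edgeR quasi-likelihood test, adjusted over 10739 transcripts by the Benjamini-Hochberg method. Of these transcripts 1.21% were called lower at a false discovery rate (FDR) of 0.1. Without any single library the adjusted p of USO1 stayed between 7.75e-05 and 0.0586. As a share of USO1's own reads, 44.5%, 45.1% and 45.6% lay 3′ to the boundary with 1.5 μM and 65.3%, 67.3% and 60.6% with vehicle, a mean of 45.1 ± 0.512% against 64.4 ± 3.42% (SD, n = 3 each) with p = 0.1 by the exact permutation test.

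SEC63 footprints built up at 10 min too, while its loss 3′ to the boundary missed the threshold. Its stall window held 8.59, 11.1 and 10.5 RPM with 1.5 μM and 3.31, 3.12 and 3.42 RPM with vehicle, a 3.06-fold difference of means with no overlap (exact permutation p = 0.1). Codons 214 to 217 took 6.99, 10.1 and 9.26 RPM against 1.51, 1.76 and 1.88 RPM. The highest codon at 10 min was 215, with a mean of 4.36 RPM against 0.613 RPM, next to codon 214 with 3.38 RPM against 0.540 RPM.

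Reads of SEC63 3′ to the boundary amounted to 39.7, 40.3 and 40.8 RPM with 1.5 μM and 55.6, 59.8 and 50.7 RPM with vehicle. All treated libraries lay below all vehicle libraries, yet the log2 fold change of -0.38 (SE 0.110) missed the threshold in edgeR's test (adjusted p = 0.118). DESeq2 gave an adjusted p of 0.0851, edgeR with the replicate block 0.0625, and edgeR without vehicle replicate 3 gave 0.0444. By edgeR the adjusted p reached 0.381 with another library left out, and 0.460 among other settings that kept every library. Those settings included wider regions that also hold the clusters, such as the whole CDS (adjusted p = 0.436 by edgeR). The call thus depended on the setting. The share of reads 3′ to the boundary was 48.4%, 42.1% and 46.1% with 1.5 μM against 53.5%, 50.8% and 55.9% with vehicle (45.5 ± 3.21% and 53.4 ± 2.57%, SD, n = 3 each), again without overlap and with an exact permutation p of 0.1. Whether the 3′ change of USO1 differed from that of SEC63 was not tested.

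**Figure D3:**
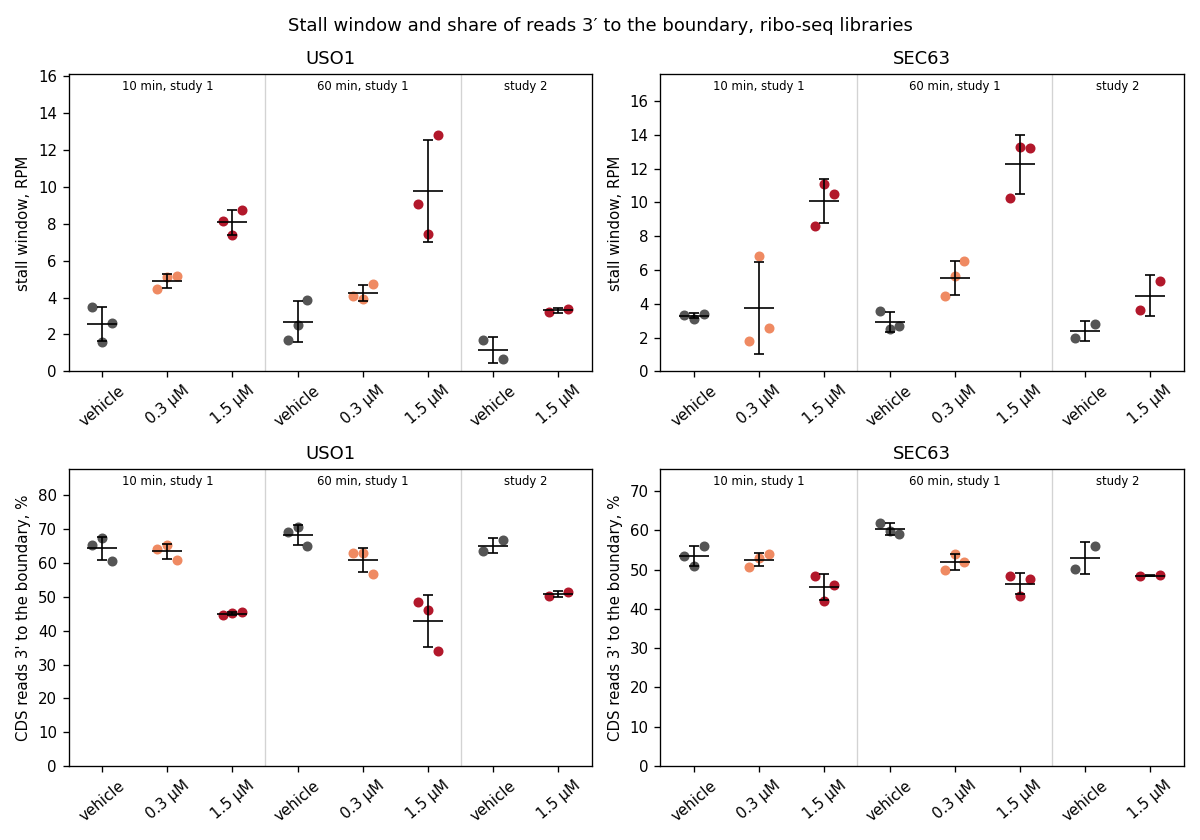
Stall window level (RPM, top) and share of CDS reads 3′ to the boundary (%, bottom) of USO1 and SEC63. Each point is a ribo-seq library, coloured by dose, with the group mean as a horizontal bar and the SD as error bars (n = 3, or 2 in the second study). At 10 min all points for 1.5 μM lie above vehicle in the top panels and below it in the bottom panels.

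The 0.3 μM libraries at 10 min were set against the same vehicle libraries. The USO1 window held 4.45, 5.12 and 5.14 RPM, each above the vehicle libraries, with means of 4.90 and 2.56 RPM (exact permutation p = 0.1). The SEC63 window held 1.78, 6.84 and 2.57 RPM against vehicle at 3.12 to 3.42 RPM, so the rise of its mean (3.73 against 3.28 RPM) rested on replicate 2. In that library, codons 214 to 217 held 113 reads, or 5.26 RPM, against 1.09 and 1.29 RPM in the other 2 libraries. Without it the mean lay 1.11 RPM below vehicle (difference -1.11).

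Reads 3′ to the boundary at 0.3 μM and 10 min gave log2 fold changes of -0.07 (SE 0.175) for USO1 and -0.09 (SE 0.126) for SEC63, both with an adjusted p of 0.999 in edgeR's test. In USO1 they amounted to 83.2, 70.2 and 63.3 RPM and in SEC63 to 50.2, 56.3 and 45.4 RPM, so that USO1 lay inside the vehicle range and 2 of the 3 SEC63 libraries below it. Read by replicate number, SEC63 was lower than vehicle in 3 of 3 pairs and USO1 in 2 of 3, and with the replicate block the log2 fold changes were -0.10 and -0.05, both with an adjusted p of 1.00 by edgeR. Over all transcripts, 0.0% were called lower. By edgeR 0 of 10855 transcripts were called in either direction, 110 had an unadjusted p under 0.05, and DESeq2 called 4. In USO1 at 0.3 μM and 10 min, then, the 3 window values lay above vehicle, a separation not counted in other transcripts. No loss 3′ to the boundary was detected at this depth and replication.

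The second study gave a separate set of libraries at 60 min with 1.5 μM. The USO1 window held 3.20 and 3.40 RPM in treated libraries and 1.67 and 0.675 RPM in vehicle, and the SEC63 window 3.61 and 5.32 RPM against 1.97 and 2.81 RPM. The treated libraries lay above vehicle in both genes, by 2.81-fold and 1.87-fold in the mean, and the exact permutation test of 2 libraries against 2 cannot go below p = 0.33, which it gave for both. The USO1 ratio rested on the vehicle libraries, at 4.89 without vehicle replicate 4 and 1.97 without vehicle replicate 5. The USO1 window rested on 39 and 46 reads against 23 and 6, and the SEC63 window on 44 and 72 reads against 27 and 25.

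Within USO1 the single codon with the largest rise differed between studies. Codons 286 to 290, the longest cluster, had the highest mean treated level of its clusters in both. In the second study, however, the mean rose from 0 to 1.76 RPM at codons 276 to 278. At codons 286 to 290 it rose by less, from 0.771 to 2.27 RPM. For the second-study libraries, codons 276 to 278 took 2.05 and 1.48 RPM in treated libraries (25 and 20 reads) and no read in either vehicle library, where 3 counts would have been 0.218 and 0.338 RPM. Codons 286 to 290, the highest cluster of the first study, took 1.89 and 2.66 RPM against 1.09 and 0.450 RPM, and codons 299 and 300 took 0.985 and 1.11 RPM against 0.437 and 0.338 RPM. The codon with the largest difference was 277, at 1.09 RPM against 0. Codons 222 and 264 overlapped vehicle in these libraries. Codon 222 held 0 and 0.222 RPM against 0 and 0.113 RPM, and codon 264 held 0.0820 and 0.0739 RPM against 0.146 and 0 RPM. In SEC63 codons 214 to 217 took 2.63 and 3.92 RPM against 0.655 and 0.900 RPM and codon 204 took 0.656 and 0.961 RPM against 0.218 and 0.113 RPM, with the largest difference at codon 215.

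USO1 reads 3′ to the boundary fell in the second study too, from 66.2 and 63.1 RPM in vehicle to 35.9 and 43.0 RPM in treated libraries. The log2 fold change was -0.71 (SE 0.103), with an adjusted p of 0.0108 in edgeR's test over 10991 transcripts, of which 0.346% were called lower. Leaving out any single library kept the adjusted p between 1.17e-07 and 0.00293, with the remaining library of a group assumed to vary like the other group. The shares 3′ to the boundary were 50.2% and 51.5% against 63.5% and 66.7%. For SEC63, by contrast, 41.1 and 46.0 RPM stood against 42.9 and 50.3 RPM, the log2 fold change was -0.09 (SE 0.112) and the adjusted p in edgeR's test was 1.00. The SEC63 shares, 48.4% and 48.5% against 50.1% and 55.9%, still did not overlap (exact permutation p = 0.33). Such a share also falls when reads 5′ to the boundary build up, so it does not measure a 3′ loss alone.

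mRNA-seq reads over the same codons showed no call. USO1 gave 19.8 and 22.4 RPM 3′ to the boundary with 1.5 μM and 23.5 and 20.9 RPM with vehicle, a log2 fold change of -0.09 (SE 0.164). SEC63 gave 16.0 and 21.2 RPM against 18.4 and 11.7 RPM, a log2 fold change of 0.30 (SE 0.239), and both had an adjusted p of 0.998 in edgeR's test. Over all transcripts 0.0% were called lower, 0 of 11524 were called in either direction, 214 had an unadjusted p under 0.05 and DESeq2 called 0. Without vehicle replicate 4, however, SEC63 would have been called higher (log2 fold change 0.66, adjusted p = 0.0996 by edgeR).

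The stall windows held few mRNA-seq reads. USO1 had 9 and 12 reads with 1.5 μM against 11 and 0 with vehicle, and SEC63 7 and 17 against 7 and 3. Codon 204 of SEC63, which lies 5′ to its window, had 10 reads in a single treated library and 0 in the other 3. The ratio of treated to vehicle means in the window was 2.08 for USO1 and 2.84 for SEC63, the latter above the 1.87 of the footprints, on these few reads. The clusters at codons 276 to 278 of USO1 and 214 to 217 of SEC63 had 0 to 5 mRNA-seq reads per library, codons 286 to 290 of USO1 had 4 and 9 with 1.5 μM against 6 and 0 with vehicle, and codons 299 and 300 had 1 and 2 against 5 and 10. Whether the window footprints changed relative to mRNA was not tested.

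Translational efficiency (TE), the footprint level relative to mRNA, was tested as an interaction term, treatment by assay, in a fit of all 8 second-study libraries. The study states that footprints and mRNA of a replicate came from the same sample, so these 8 libraries stand for 4 samples. The main fit had no term for the sample. USO1 TE 3′ to the boundary changed by -0.61 on the log2 scale (SE 0.179, unadjusted p = 0.00516 in edgeR's test) and SEC63 TE by -0.38 (SE 0.283). Neither was called, with an adjusted p of 1.00 for both in edgeR's test over 11525 transcripts, of which 0.13% were called lower. With a term for each of the 4 samples in the fit, the adjusted p by edgeR was 0.450 for USO1 and 0.939 for SEC63.

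**Figure D4:**
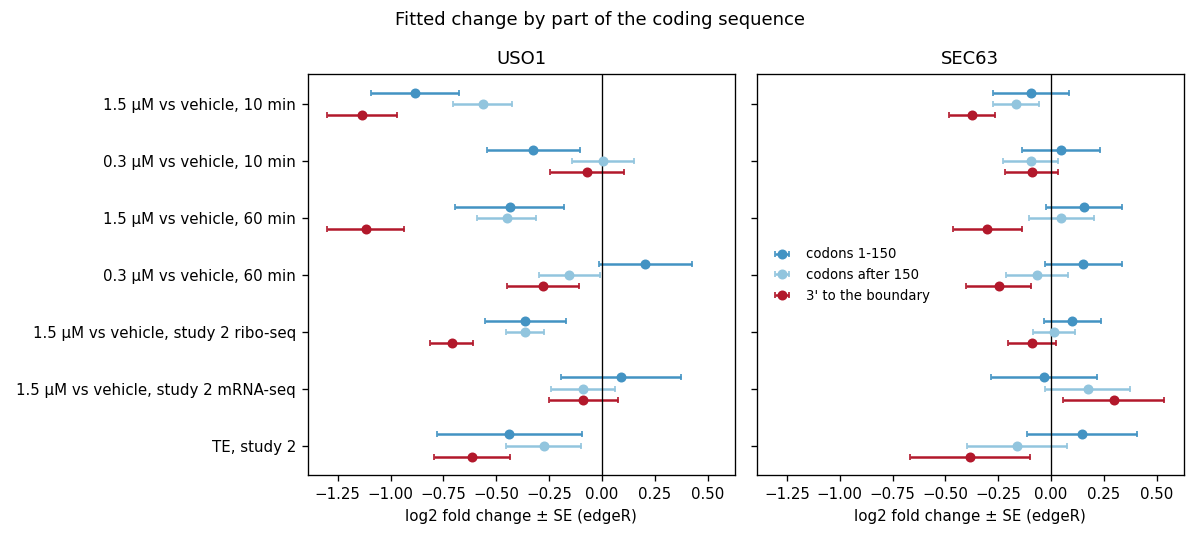
Log2 fold change ± SE (edgeR) of USO1 and SEC63 for codons 1 to 150, codons after 150 and codons 3′ to the boundary, one line per comparison. The USO1 point 3′ to the boundary lies at -1.13 for 1.5 μM at 10 min, -1.12 at 60 min and -0.71 in ribo-seq of the second study, and at -0.09 in mRNA-seq.

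Dmax itself, recomputed at 10 min and in the second study, in libraries that did not set the boundary, passed the minimum of 2 for USO1 but not for SEC63. At 10 min with 1.5 μM its value for USO1 was 0.211, found at codon 309 (Z-score 2.95, place 49 of 11422) and in the second study 0.156 at codon 314 (Z-score 4.60, place 13 of 11405). SEC63 had 0.125 at codon 216 (Z-score 1.54) and 0.0525 at codon 220 (Z-score 1.55), under the minimum, with both Dmax codons close to its cluster rather than at 345. Leaving out single libraries of the second study moved the SEC63 Z-score between 0.985 and 2.13, and it passed the minimum without vehicle replicate 4. The minimum was reached by 3.56% of transcripts at 10 min and 2.27% in the second study. In mRNA-seq, where 2.38% reached it, USO1 and SEC63 had Z-scores of 0.608 and 0.616.

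At 0.3 μM both members passed at 60 min, with Z-scores of 2.18 at codon 343 and 2.49 at codon 349, where 2.24% of transcripts did. The USO1 value fell under the minimum without treated replicate 3 (1.64), vehicle replicate 1 (1.95) or vehicle replicate 2 (1.41), and its range over single libraries left out was 1.41 to 2.58, whereas that of SEC63 was 2.06 to 2.65. At 10 min neither did, at 0.738 and 1.31, where 3.52% of transcripts did. The 60-min comparison shares its vehicle libraries with the comparison that set the boundary. Between single libraries of the second study, Dmax of USO1 ranged from 0.134 to 0.197 for treated against vehicle and was at most 0.0540 for vehicle against vehicle, whereas SEC63 ranged from 0.0269 to 0.0964 against at most 0.0684. At 10 min the ranges were 0.168 to 0.257 for USO1 (vehicle pairs at most 0.151) and 0.0847 to 0.176 for SEC63 (vehicle pairs at most 0.0775).

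Codons 1 to 150 lie 5′ to the clusters of both genes. USO1 footprints there amounted to 7.28, 7.89 and 10.2 RPM at 10 min with 1.5 μM and 18.7, 16.7 and 11.2 RPM with vehicle. The log2 fold change was -0.88 (SE 0.207) with an adjusted p of 0.0880 in edgeR's test, where 0.564% of transcripts were called lower. The call was lost without any one of 5 of the 6 libraries, with edgeR adjusted p-values of up to 0.351, and was kept only without vehicle replicate 3 (edgeR adjusted p = 0.00332). At 60 min the same codons held 11.7, 5.86 and 5.24 RPM against 11.5, 9.86 and 9.82 RPM, and in the second study 9.93 and 11.0 RPM against 15.6 and 10.6 RPM, where USO1 was not called (log2 fold change -0.36, adjusted p = 1.00 by edgeR) and 0.0373% of transcripts were lower. As a share of USO1's reads, codons 1 to 150 held 11.4 ± 1.08% with 1.5 μM and 13.0 ± 1.32% with vehicle at 10 min (SD, n = 3 each).

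SEC63 footprints in codons 1 to 150 did not follow. They amounted to 17.6, 25.8 and 18.6 RPM at 10 min with 1.5 μM and 21.8, 27.3 and 17.4 RPM with vehicle, with overlap, a log2 fold change of -0.10 (SE 0.180) and an adjusted p of 0.824 in edgeR's test. In the second study the log2 fold change was 0.10 (SE 0.135).

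Codons after 150 hold both the clusters and the depleted 3′ part, so sums over them mix opposite changes. USO1 gave a log2 fold change of -0.56 (SE 0.138) at 10 min, with an adjusted p of 0.0910 in edgeR's test, where 1.21% of transcripts were called lower. That call, too, was lost without any one of 5 of the 6 libraries (adjusted p up to 0.373) and was kept without vehicle replicate 3 (0.0129). Second-study libraries gave -0.36 (SE 0.0909) with an adjusted p of 0.481 in edgeR's test, where 0.18% were called lower, while with the replicate block the adjusted p was 2.2e-05 and without treated replicate 5 it was 0.0949. SEC63 gave -0.16 (SE 0.109, adjusted p = 0.436 by edgeR) at 10 min and 0.01 (SE 0.0976) in the second study.

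Between codon 151 and the stall window, footprints of USO1 averaged 15.4 RPM with 1.5 μM and 15.6 RPM with vehicle at 10 min, and 16.0 and 11.6 RPM at 60 min. The second study had 17.3 and 12.6 RPM. Those of SEC63 averaged 6.97 and 6.46 RPM at 10 min, 7.91 and 4.92 RPM at 60 min, and 8.31 and 6.70 RPM in the second study. The ratios of treated to vehicle were 0.988, 1.38 and 1.38 for USO1 and 1.08, 1.61 and 1.24 for SEC63. In USO1 this stretch holds the clusters at codons 222, 264 and 276 to 278, and at 10 min its sum joined their rise with a lower level elsewhere, such as 3.71 against 5.45 RPM in codons 201 to 250.

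As RPKM of the CDS, vehicle cells carried 41.3 ± 8.90 of USO1 and 45.6 ± 5.93 of SEC63 at 10 min, and 34.1 ± 3.38 and 43.3 ± 6.30 at 60 min (SD, n = 3 each). The 2 genes thus had footprint levels within their spread at 10 min. With 1.5 μM, USO1 was at 25.5 ± 2.22 at 10 min and 24.6 ± 4.25 at 60 min, and SEC63 at 38.9 ± 2.99 and 45.0 ± 7.94. mRNA levels were 11.5 with 1.5 μM and 11.8 with vehicle for USO1 and 14.9 and 13.4 for SEC63. Over the whole CDS, USO1 fell at 10 min by 0.64 on the log2 scale (SE 0.141, adjusted p = 0.0863 by edgeR), where 0.389% of transcripts were called lower and 0.462% higher, and that call was likewise lost without any one of 5 of the 6 libraries (adjusted p up to 0.383). In the second study the whole-CDS change of USO1 was -0.37 (adjusted p = 0.728 by edgeR) and that of SEC63 0.03.

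Genes that work with USO1 and SEC63 were read over the whole CDS from lists of pathway members. Of the ER-to-Golgi tethers, golgins and SNAREs, among them GOLGA2, RAB1A and STX5, 31 were tested, and of the COPII coat and cargo receptors 21 transcripts (MIA2 has 2), of the COPI coat 8, the translocon and its partners 11, and the signal recognition particle and its receptor 7. In these 5 lists 0 genes were called in either direction in any of the comparisons by edgeR. At 60 min with 1.5 μM, in the first study, where 0.0726% of all transcripts were called lower and 0.0% higher, the median log2 fold change was 0.06 for the tethers and -0.05 for the translocon, against -0.00 for all transcripts. In ribo-seq of the second study, where 0.107% were called lower and 0.00888% higher, the medians were -0.02 and -0.04.

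The sixth list, the J proteins of the endoplasmic reticulum with BiP and its exchange factors, held the only calls. At 10 min with 1.5 μM, 2 of 8 genes were lower and 0 higher (0.389% and 0.462% of all transcripts), with a list median of -0.24 against 0.01 for all transcripts. They were DNAJC1, a membrane-bound J protein that binds BiP (log2 fold change -0.65, SE 0.126, adjusted p = 0.0547 by edgeR), and DNAJB11, a luminal BiP co-chaperone (-0.49, SE 0.102, adjusted p = 0.0651 by edgeR). Both calls depended on single libraries. DNAJC1 lost it without treated replicate 1 or 2 or vehicle replicate 1 (adjusted p 0.289, 0.357 and 0.178), and DNAJB11 without any of the libraries other than vehicle replicate 3 (0.126 to 0.383). In the other comparisons 0 of the 8 were called, and the list medians were -0.03 at 60 min and -0.08 in the second study.

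Across the 18 ribo-seq libraries of the first study, the genes whose reads 3′ to the boundary, relative to vehicle of the same time, followed USO1 most closely were HSD17B11 (Pearson r 0.914), CDH1 (0.913) and FZD4 (0.903), out of 9373 transcripts. For SEC63 they were COX6C (0.899), HSP90AA1 (0.877) and GPN3 (0.874). USO1 and SEC63 had an r of 0.784 with each other. These values describe libraries that fall into 3 dose groups and share vehicle means and depth, and they include the libraries that placed the boundaries.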

How the data were processed

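The deposited files hold raw counts of reads per codon, at the inferred P-site, with 1 table for each of the 26 libraries. According to the methods and processing notes, the authors removed adapters and rRNA reads and aligned the rest with Bowtie 1.1.2 (GRCh38) to 1 isoform per expressed gene, chosen with kallisto 0.42.5. Transcripts were named with GENCODE 44.

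Reads were summed by region, and whole tables were fitted with edgeR 4.0.16 (R 4.3.3): TMM scaling, filterByExpr, quasi-likelihood test and an FDR of 0.1, with the compared groups only. Dmax used transcripts with at least 10 reads per group, in bins of 300, and a Z-score minimum of 2. A transcript at or above it was split at its 60-min Dmax codon, others at codon 50. Single values were compared by two-sided exact permutation tests over libraries (scipy 1.17.1, numpy 2.4.6, pandas 2.3.3, Python 3.11.15). The scripts were tested on simulated data.

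The 2 members, the lists and the tests were chosen with earlier results of these data known. Named genes are the members, called members of the lists, and the 3 transcripts most like each member. Alternatives were DESeq2 1.42.0, a replicate block (for TE, a term for each sample), other filters, boundaries and windows, and each library left out. Those for the whole CDS at 10 min were added after seeing the data. Same-numbered libraries deviated together with r of 0.0719 to 0.215 at 10 min with 1.5 μM, where differently numbered ones reached at most 0.0556. With 0.3 μM the values were 0.141 to 0.503, against at most 0.142. In the second study they were 0.235 in ribo-seq and 0.0828 in mRNA-seq. With 2 libraries per group, differently numbered ones must take the same value with the opposite sign. The numbers may pair the libraries, but deviations from group means of so few libraries cannot decide this, and the labels do not say so. The main fits and the permutation tests treated the groups as unpaired, and the replicate block was an alternative. Intervals between libraries cover no uncertainty in P-site assignment, and cycloheximide at harvest can move footprints along an mRNA.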

Additional observations from a re-analysis of the deposited data

How the results depend on the processing

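Of the members' log2 fold changes under settings that kept every library, 156 kept their direction and side of the threshold, 3 reversed, 3 passed it newly and 2 lost the call. At 10 min with 1.5 μM, SEC63 3′ to its boundary was called with DESeq2 (-0.37) and with the replicate block (-0.37). In ribo-seq of the second study, USO1 3′ to its boundary lost the call when the region was the whole CDS (-0.37) or began after codon 50 (-0.36), SEC63 turned to 0.030, 0.054 and, with that study's own Dmax codon, 0.057, and USO1 after codon 150 was called with the replicate block (-0.37). The cause was not tested. The replicate block changed no other call of the members.

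Transcripts called 3′ to the boundary at 10 min with 1.5 μM numbered 186, against 582 with DESeq2, 1149 with the replicate block, 94 over the whole CDS, 291 without the last 15 codons and 471 with the comparison's own Dmax codons. DESeq2 called 4 at 0.3 μM. In the second study 39 became 137 with the replicate block and 13 over the whole CDS, mRNA-seq gave 1 with the block, and TE calls went from 15 to 4 over the whole CDS. With the Z-score taken as distance from the bin mean in SD, USO1 had 7.20 at 60 min, 3.82 at 10 min and 7.13 in the second study, SEC63 3.13 at 0.3 μM and 60 min, and mRNA-seq gave -0.42 and -0.51.

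Leaving out each library in turn gave these ranges. At 10 min with 1.5 μM, SEC63 3′ to the boundary ran from -0.41 to -0.33 and over codons 1 to 150 from -0.29 to 0.049, and USO1 from -1.05 to -0.71 over codons 1 to 150, -0.70 to -0.44 after 150 and -0.79 to -0.54 over the whole CDS. DNAJC1 and DNAJB11 kept their direction. At 0.3 μM, USO1 ran from -0.24 to 0.070 (3′) and -0.14 to 0.12 (after 150) and SEC63 from -0.086 to 0.19 (codons 1 to 150), with share differences of -2.86 to 0.473 and -2.21 to 0.355 percentage points and a SEC63 window difference of -1.11 to 1.42 RPM. In the second study, where a group is left with 1 library assumed to vary like the other group, SEC63 ran from -0.22 to 0.036 (3′), -0.022 to 0.26 (codons 1 to 150) and -0.095 to 0.11 (after 150), and USO1 after 150 from -0.49 to -0.25. In mRNA-seq USO1 ran from -0.20 to 0.0050 (3′), -0.16 to 0.37 (codons 1 to 150) and -0.22 to 0.064 (after 150), and SEC63 from -0.0016 to 0.66, -0.19 to 0.11 and -0.084 to 0.40 in the same regions. TE of SEC63 after 150 ran from -0.39 to 0.091. Called transcripts ran from 26 to 1701 at 10 min, 35 to 156 in the second study, 0 to 555 in mRNA-seq and 6 to 185 for TE. Z-scores ran from 3.98 to 4.93 for USO1 at 60 min, 2.34 to 2.88 at 10 min and 3.54 to 4.80 in the second study, and for SEC63 from 2.06 to 2.65 at 0.3 μM and 60 min and 0.364 to 0.739 in mRNA-seq. Stall windows of 6 to 147 reads in the second study and at 0.3 μM limit what a single library can show.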
